A study of Mus musculus with 4 samples.

Results

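Semaphorins and ephrins are cell-surface or secreted guidance ligands, and plexins, neuropilins and Eph receptors are the proteins that read them. These genes were followed in mouse embryonic fibroblasts (MEFs) lacking p53, on day 5 after retroviral transduction. The genes were chosen by name: every probe whose accession maps to a RefSeq symbol of semaphorin classes 3 to 7, a plexin, neuropilin 1 or 2, an ephrin or an Eph receptor. The rule found 80 of the 41174 probes, which read 51 genes: 19 semaphorins, 9 plexins, 2 neuropilins, 7 ephrins and 14 Eph receptors. All cells were p53 null. The OSK group received the factor set OSK, by the field's usage Oct4, Sox2 and Klf4, with Pou5f1 the gene of Oct4, and the OSK+Glis1 group received the same set with Glis1, a zinc finger transcription factor. The labels call the first group embryonic fibroblasts and the other induced pluripotent cells made from them. Each group had 2 one-colour arrays, with 1 RNA sample on each, and nothing in the labels places the samples of a group in separate cultures, so the p-values speak of the spread among these samples only, and that spread may be technical.

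Secreted class 3 semaphorins bind neuropilins, which signal through partner plexins, while membrane-bound semaphorins mostly bind plexins directly. Plexins act on small GTPases such as R-Ras and Rap1, and through them on adhesion and the actin skeleton. Ephrins are anchored in the membrane, class A by a lipid and class B by a transmembrane segment, and their Eph receptors are tyrosine kinases, so that contact between cells sends signals into both. The families are best known from axon guidance, and in mesenchyme and epithelium they take part in cell sorting, boundary formation and migration.

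Levels are given as the log2 of the scanner's processed signal minus the array's 75th percentile, so that 0 is the level of that percentile and 1 unit is a 2-fold step. Levels of different genes come from different probes and are not compared. A gene was tested where a probe stood well above background on each array of 1 group or more, which held for 46 of the 51, and 42 of these reached that mark on all 4 arrays. Efna2, Plxna4, Sema3d and Sema4g entered through 1 group only, which had to make a difference likelier. Epha10, Epha6, Epha8, Ephb1 and Sema3a did not enter. Epha10 and Epha6 were not well above background on any array, Epha8 and Ephb1 were so on OSK+Glis1 replicate 1 only, and both Sema3a probes were so on OSK replicate 1 only.

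The families changed in both directions, and more of their genes rose than fell when Glis1 was added. In limma with Benjamini-Hochberg adjustment over all genes, 16 of the 46 passed an adjusted p of 0.05, of which 12 were higher with Glis1 and 4 lower. Over all 19165 genes tested the called share was 14.2%, with 6.04% higher and 8.16% lower. For the families these shares were 34.8%, 26.1% and 8.70%. With median scaling the all-gene calls were 1583 higher and 1402 lower, against 1158 and 1564 as scaled here, and the family calls were 13 and 4. Among genes that rose were the plexin Plxnb3 (13.6-fold), Sema3b (6.38-fold), the ephrin Efna4 (5.50-fold) and the receptor Ephb2 (5.30-fold). Sema6d (3.56-fold), Epha7 (3.02-fold), Sema3f (3.01-fold) and Sema3d (at least 3.51-fold) fell. Efna2 and Sema3d are among the genes that entered through 1 group only. With the test held to genes well above background on all 4 arrays, neither entered, and 12 of 42 family genes passed as higher and 4 as lower, now with Plxnd1 and Epha2. Over all 17347 genes so tested, 935 were higher and 1322 lower. The median difference of the 46 was 0.31, against 0.05 over all genes. Leaving out OSK replicate 1 left 2 lower calls of 4, and leaving out OSK replicate 2 left 8 higher calls. Normexp background correction, which starts from the spot and its local background, left 0 family calls in limma, with 10 genes at an unadjusted p under 0.05, and 0 calls over all genes.

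**Figure D1:**
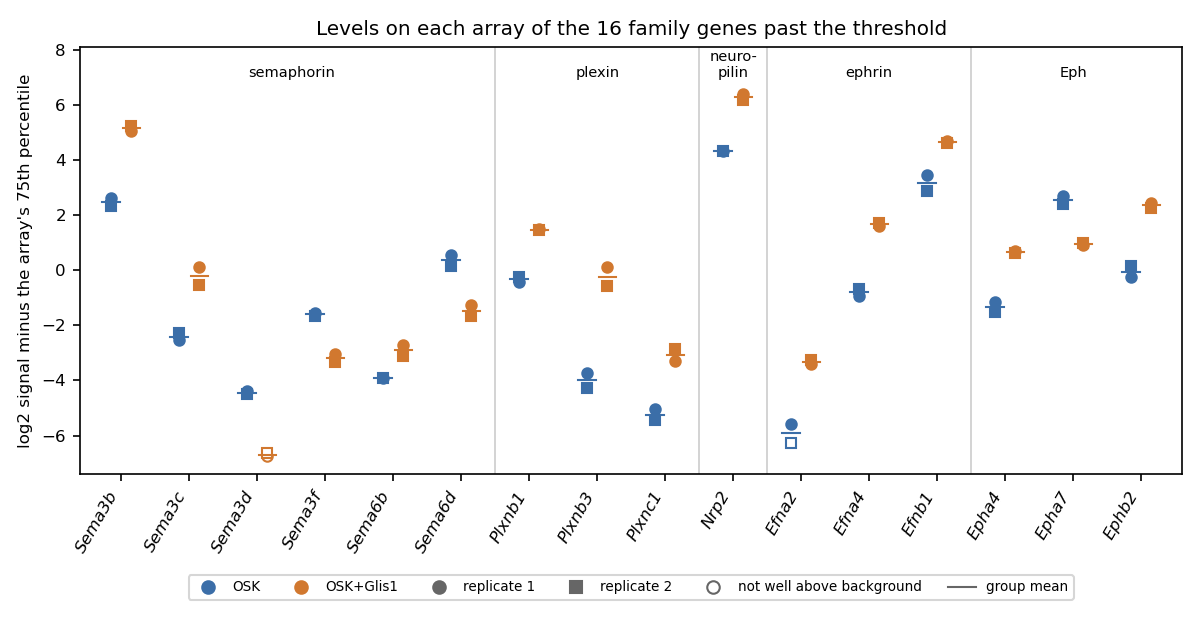
Level of each family gene that passed the threshold on each of the 4 arrays, as log2 signal minus the array's 75th percentile (vertical axis), with genes grouped by family (horizontal axis). Circles are replicate 1, squares replicate 2, open symbols arrays not well above background and bars group means of 2 arrays. In none of the 16 genes do the groups overlap, but these genes were picked by their calls. Without that choice the groups did not overlap for 38 of the 46 tested family genes and for 59.9% of all genes. Sema3d, Sema3f, Sema6d and Epha7 are the 4 that lie lower in OSK+Glis1.

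By size alone, 20 of the 46 genes differed at least 2-fold without overlap between the groups, 14 higher and 6 lower. The share over all genes was 16.3%, with 6.81% higher and 9.47% lower. Groups did not overlap, at any size, for 38 of the 46 genes, and for 59.9% of all genes. The 16 called genes are all among the 20. The remaining 4 are Plxnd1, Plxna4, Epha1 and Epha3, described with their families.

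Markers of other cells moved between the groups as well. Among 8 tested genes of neurons and glia Tubb3, Nefl and Nefm fell, and Map2 and Rbfox3 had differences of 0.64 and 0.65 that did not pass. Nefm entered through the OSK group alone, where it is high, so its call is no independent support. For the list the log2 of their summed level was 5.46 and 6.06 in OSK against 2.18 and 3.13. Gfap of that list lacked the signal to be tested. Of 12 fibroblast markers, 10 were lower, against 8597 of all 19165 genes, and 11 of the 12 were well above background on all arrays. Col1a1, Thy1, Dcn, Postn and Fap passed as lower (41.7%, against 8.16% of all genes), and 0 passed as higher. Fap entered through the OSK group alone. The summed levels of the list were 8.43 and 8.39 in OSK against 8.29 and 8.07. Bright probes weigh most in these sums, such as Vim (mean 7.16 against 7.04) and Col1a2 (6.57 against 6.73), neither of which passed. For 7 epithelial markers the summed levels were 5.38 and 4.98 against 3.60 and 4.40. Of these 5 were lower and 2 higher. Only Cldn7 passed, as lower (7.64-fold, limma adjusted p = 0.0157), which is 14.3% of the list against 8.16% of all genes. Krt8 (-1.97) and Epcam (-1.64) did not pass, and Cdh1 was at 0.03. Of the endothelial list Pecam1, Cdh5, Tie1, Emcn and Erg were not tested for lack of signal, and the tested 3 went different ways, with Esam at 2.12 (limma adjusted p = 0.00595), Cldn5 at -3.46 (0.00991) and Tek at -0.85 (0.115) as log2 differences. Their summed levels were 0.96 and 0.33 in OSK against -0.39 and -0.09. Ptprc and Csf1r, which mark leukocytes, were not tested for the same reason. The part of such cells in the results on guidance genes was not tested. In bulk RNA fewer cells of a type and less RNA per cell cannot be told apart. The Glis1 probe gave no check of the labels, at -3.26 and -3.34 in OSK and -3.28 and -3.73 in OSK+Glis1, so directions refer to the groups as labelled. The Sox2 probe was at -5.82 and -5.44 in OSK, not well above background on either array. In OSK+Glis1 it was at -5.65 and -3.39 (limma adjusted p = 0.408). Klf4 was at 3.17 and 3.00 in OSK against 3.60 and 2.84 (limma adjusted p = 0.812). Pou5f1 marks pluripotent cells and is also a delivered factor. Its levels were -4.52 and -5.72 in OSK, well above background on 1 array only, against -2.19 and -1.08 in OSK+Glis1. It passed (limma adjusted p = 0.0194) but entered the test through the OSK+Glis1 group alone, where it is high. Its p is therefore no independent support. With no filter on dim probes it did not pass (limma adjusted p = 0.0527). Leaving out OSK replicate 1 or 2 also ended the call, at log2 differences of 4.09 and 2.88.

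Promoters are shown for 3 called genes that were higher and 3 that were lower, the ones with the largest fitted differences among those with a RefSeq window, so that the letters before genes of opposite direction can be read side by side. Of the 46 tested genes 40 had a window in the RefSeq table of build GRCm38.p6, 53 windows in all counting further starts. Sema3b and Sema3f are among those without one. Each sequence is the 250 bases before the first listed start, 5′ to 3′ in the direction of the gene. Capitals mark matches, on either strand, to any of 6 motifs: a Glis core (TGGGGGGT), a Gli core (GGGTGGTC), a Klf4-type box (CCCCACCC), the octamer bound by Oct factors (ATGCAAAT), a Sox motif (CATTGTT) and the TATA box (TATAAA).
Plxnb3 (chrX:73756853-73757102, plus strand): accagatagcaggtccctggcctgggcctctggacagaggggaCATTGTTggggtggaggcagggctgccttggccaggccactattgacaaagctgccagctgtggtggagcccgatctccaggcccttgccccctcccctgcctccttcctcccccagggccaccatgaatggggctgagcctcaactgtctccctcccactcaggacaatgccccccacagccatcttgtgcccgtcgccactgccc
Efna2 (chr10:80179232-80179481, plus strand): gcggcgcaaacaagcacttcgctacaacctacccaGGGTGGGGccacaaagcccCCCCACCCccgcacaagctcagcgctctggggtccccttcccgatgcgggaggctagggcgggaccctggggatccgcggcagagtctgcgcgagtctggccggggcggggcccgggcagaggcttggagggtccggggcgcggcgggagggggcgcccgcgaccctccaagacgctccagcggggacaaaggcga
Efna4 (chr3:89338029-89338278, minus strand): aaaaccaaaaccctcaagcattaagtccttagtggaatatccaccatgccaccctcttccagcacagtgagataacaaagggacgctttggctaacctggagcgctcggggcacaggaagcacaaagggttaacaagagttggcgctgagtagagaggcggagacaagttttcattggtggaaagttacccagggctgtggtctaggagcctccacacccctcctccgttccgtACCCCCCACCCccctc
Sema3d (chr5:12382916-12383165, plus strand): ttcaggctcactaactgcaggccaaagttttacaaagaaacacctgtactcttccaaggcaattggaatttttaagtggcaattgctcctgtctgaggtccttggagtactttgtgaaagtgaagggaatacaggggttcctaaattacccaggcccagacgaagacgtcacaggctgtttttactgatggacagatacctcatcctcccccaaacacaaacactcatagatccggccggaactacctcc
Sema6d (chr2:124089719-124089968, plus strand): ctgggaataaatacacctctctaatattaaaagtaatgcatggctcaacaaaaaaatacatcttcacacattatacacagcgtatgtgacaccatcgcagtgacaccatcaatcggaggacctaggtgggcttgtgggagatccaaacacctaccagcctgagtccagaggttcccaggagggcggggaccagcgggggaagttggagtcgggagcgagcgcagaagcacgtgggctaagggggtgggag
Epha7 (chr4:28812881-28813130, plus strand): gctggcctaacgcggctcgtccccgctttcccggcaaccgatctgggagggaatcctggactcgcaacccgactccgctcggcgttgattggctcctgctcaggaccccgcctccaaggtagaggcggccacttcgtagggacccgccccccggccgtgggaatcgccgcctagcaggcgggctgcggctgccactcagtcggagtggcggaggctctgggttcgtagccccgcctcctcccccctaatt

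Efna2 held the Klf4-type box on each strand. In Efna4 a Glis core and a Klf4-type box overlap just before the start, and Plxnb3 held a Sox motif. None of the 6 motifs was found in the windows shown for Sema3d, Sema6d and Epha7. Among genes that rose, 6 of 11 with a window held the Klf4-type box (Efna2, Efna4, Efnb1, Epha4, Plxnb1 and Sema3c), and among genes that fell 0 of 3 did. The box was in 17 of the 53 windows of tested family genes (32.1%) and in 9.05% of all 32851 windows. The family windows were richer in G and C, with a median of 64.4% against 52.4%. The Glis core was in 1.89% of the family windows, that of Efna4 alone, and in 1.36% of all windows, and the Gli core in 0 of 53 and 0.703%. A match describes letters only and shows no binding.

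Secreted class 3 semaphorins moved both ways. Sema3b, a ligand of the neuropilins, was at 2.61 and 2.33 on the OSK arrays and at 5.04 and 5.25 on the OSK+Glis1 arrays. The groups lay far apart, with a log2 difference of 2.67 ± 0.20 (SE; limma adjusted p = 0.00328). Sema3c, a ligand needed for heart outflow tract formation, was at -2.55 and -2.28 in OSK and at 0.12 and -0.54 in OSK+Glis1. Its rise was 4.62-fold (2.21 ± 0.28 SE, limma adjusted p = 0.0105), with the higher level on OSK+Glis1 replicate 1. Sema3d went from -4.38 and -4.50 in OSK to -6.76 and -6.62, where it was not well above background. Its fitted difference was -2.25 ± 0.17 (limma adjusted p = 0.00343), and the bound of at least 3.51-fold was not itself tested. It entered the test through the OSK group alone, where it is high, so this p is no independent support. Sema3f, which binds neuropilin 2, fell from -1.53 and -1.65 to -3.05 and -3.32 (log2 difference -1.59 ± 0.19 SE, limma adjusted p = 0.00869). Its second probe fell further, by 2.16 on the log2 scale. The call of Sema3c was lost without OSK replicate 1 (adjusted p = 0.0727) and without OSK replicate 2 (0.0633), and so was that of Sema3f (0.0558 and 0.0516). Sema3d lost its call under normexp with outlying local backgrounds replaced by the array median, where its difference was -0.58 (adjusted p = 0.0583).

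Sema3e, the ligand of Plxnd1, gave no single answer because its 3 probes disagreed. The probe with the highest mean was at -0.06 and 0.68 in OSK and at -0.14 and -0.11 in OSK+Glis1, a difference of -0.44 ± 0.29 (limma adjusted p = 0.395). Another probe rose from -0.71 and -0.45 to 0.31 and 0.26, by 0.87 ± 0.18, and passed in a fit over all probes (limma adjusted p = 0.0438). The last probe was at -4.55 and -3.49 against -5.22 and -4.62, with a difference of -0.90 ± 0.42. All 3 carry the same accession.

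Among the membrane-bound semaphorins of classes 4 to 7, 1 of 13 tested rose and 1 fell, a called share of 15.4% near the 14.2% of all genes. Sema6d, a transmembrane ligand of plexin A1, was at 0.56 and 0.15 in OSK and at -1.28 and -1.67 in OSK+Glis1. Its log2 difference was -1.83 ± 0.25 SE, a 3.56-fold fall (limma adjusted p = 0.0124), and the call was lost without OSK replicate 1 (adjusted p = 0.0659). Sema6b, another class 6 member, rose from -3.90 and -3.92 to -2.70 and -3.11 (1.00 ± 0.21 SE, limma adjusted p = 0.0418). Leaving out any single array ended that call, with adjusted p of 0.134 (OSK replicate 1), 0.149 (OSK replicate 2), 0.171 (OSK+Glis1 replicate 1) and 0.0621 (OSK+Glis1 replicate 2). It was also lost with the replicate block (0.0521).

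The other 11 members of classes 4 to 7 did not pass. Sema4a (0.98 ± 0.31), Sema4c (0.96 ± 0.37), Sema6a (0.57 ± 0.18), Sema4g (0.48 ± 0.40), Sema6c (0.35 ± 0.16) and Sema4f (0.01 ± 0.18) had positive log2 differences. Sema4d, the ligand of Plxnb1, was at -0.08 ± 0.21 and Sema4b at -0.10 ± 0.17. Sema4c, a ligand of Plxnb2, passed without OSK replicate 1, at a difference of 1.47 (adjusted p = 0.0457). Negative differences were found for the lipid-anchored Sema7a (-0.86 ± 0.25), for Sema5a (-0.67 ± 0.28) and for Sema5b (-0.52 ± 0.19). For Sema5b the probe with the highest mean gave a smaller difference than its other probes. Those fell in a fit over all probes, with differences of -1.81 ± 0.27 and -1.76 ± 0.29 (limma adjusted p = 0.0167 and 0.0227), and with the mean of its 3 probes Sema5b had a difference of -1.36 (adjusted p = 0.0191).

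**Figure D2:**
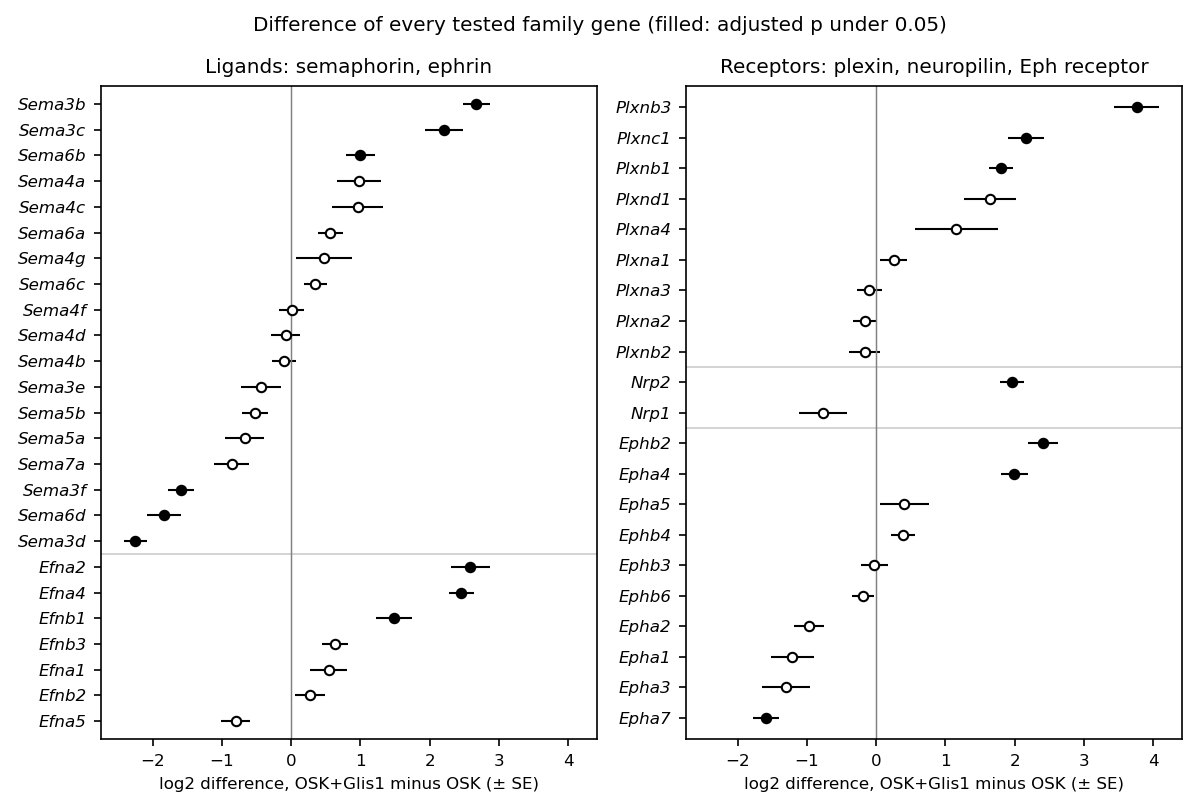
Log2 difference between OSK+Glis1 and OSK with its standard error (horizontal axis) for the 46 tested genes, ligands on the left and receptors on the right, ordered by size within a family. Filled points passed an adjusted p of 0.05 in limma: 6 of 18 semaphorins, 3 of 7 ephrins, 3 of 9 plexins, 1 of 2 neuropilins and 3 of 10 Eph receptors. Over all genes 14.2% passed.

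Ephrins rose where they passed. Efna2, a lipid-anchored class A ephrin, was at -5.57 and -6.27 in OSK, well above background on replicate 1 only, and at -3.40 and -3.26 in OSK+Glis1 (2.59 ± 0.28 SE, limma adjusted p = 0.00727). Efna4, of the same class, rose from -0.92 and -0.67 to 1.61 and 1.72 (2.46 ± 0.18 SE, limma adjusted p = 0.00331), with both groups tight. Efna2 entered through the OSK+Glis1 group alone, where it is high, so its p-values are no independent support. Its difference was 0.78 (limma adjusted p = 0.0217) under normexp with outlying local backgrounds replaced. Efnb1, the X-linked class B ephrin, was high in both groups, at 3.47 and 2.86 in OSK and 4.71 and 4.60 in OSK+Glis1. Its rise was 2.80-fold (1.49 ± 0.26 SE, limma adjusted p = 0.0244) and was no longer called when OSK replicate 2 (0.0667) or either OSK+Glis1 array (0.101 and 0.0795) was left out, or with no filter on dim probes (0.0765). Without OSK replicate 2 the difference was 1.18.

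The remaining 4 ephrins did not pass. Their groups did not overlap, which held for 59.9% of all genes. Efnb3 (0.64 ± 0.19), Efna1 (0.54 ± 0.26) and Efnb2 (0.27 ± 0.22) lay higher in OSK+Glis1. The second Efnb2 probe was at -0.02 ± 0.24. Efna5 was the ephrin with a negative difference, from 3.89 and 3.66 to 2.80 and 3.15 (-0.80 ± 0.21 SE, limma adjusted p = 0.0761). Its second probe, on another transcript accession, gave -0.56 ± 0.25.

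Among the receptors of semaphorins 3 of 9 plexins rose (33.3%, against 6.04% of all genes), of classes B and C. In class A 0 of 4 passed in limma, where 0 of them reached even an unadjusted p under 0.05. Plxnb3, a receptor for Sema5a, was at -3.73 and -4.27 in OSK and at 0.11 and -0.58 in OSK+Glis1, so that even the nearest arrays of the groups lay over 3 log2 units apart. The difference was 3.76 ± 0.32 (SE; limma adjusted p = 0.00452), and 2.67 under normexp with outlying local backgrounds replaced. Plxnc1, the receptor for Sema7a, rose from -5.03 and -5.45 to -3.30 and -2.85 (2.16 ± 0.25 SE, limma adjusted p = 0.0088), a call lost without OSK replicate 2 (0.0564) and a difference that was 0.75 under the same normexp setting. Plxnb1, the receptor for Sema4d, rose from -0.43 and -0.24 to 1.49 and 1.46. The difference was 1.81 ± 0.17 (limma adjusted p = 0.00542), and a second probe gave 1.88 ± 0.18.

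Plxnd1, the receptor for Sema3e, was at -3.86 and -3.98 in OSK and at -1.75 and -2.80 in OSK+Glis1. Its 3.12-fold difference (1.64 ± 0.38 SE) fell short with a limma adjusted p of 0.0537. It passed under 7 of 14 alternatives, among them the replicate block (0.0283) and without OSK+Glis1 replicate 2 (0.0169, difference 2.17). Plxna4 was at -5.88 and -6.06 in OSK, not well above background, and at -3.93 and -5.70 in OSK+Glis1, at least 1.87-fold higher by its bound (limma adjusted p = 0.286 for the fitted difference). It passed without OSK+Glis1 replicate 2 (0.0198), with a difference of 2.04, and its second tested probe gave 0.14 ± 0.19. Plxna1 (0.25 ± 0.19), Plxna2 (-0.16 ± 0.18), Plxna3 (-0.10 ± 0.19) and Plxnb2 (-0.16 ± 0.22) had small differences, with adjusted p of 0.454 to 0.784.

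The neuropilins parted. Nrp2, the co-receptor of Sema3f and Sema3c, was at 4.32 and 4.34 in OSK and at 6.38 and 6.19 in OSK+Glis1, a 3.88-fold rise (1.96 ± 0.17 SE, limma adjusted p = 0.00468). Nrp1, the co-receptor of Sema3a and of vascular endothelial growth factor, was at -2.92 and -3.59 in OSK and at -3.69 and -4.35 in OSK+Glis1 (-0.77 ± 0.34 SE, limma adjusted p = 0.226). Its second probe gave -0.75 ± 0.25.

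Of the Eph receptors, 2 of 10 tested rose (20%, against 6.04% of all genes) and 1 fell (10%, near the 8.16% of all genes). Ephb2, a receptor of class B ephrins, was at -0.24 and 0.14 in OSK and at 2.46 and 2.26 in OSK+Glis1 (2.41 ± 0.21 SE, limma adjusted p = 0.00477). Epha4, which binds ephrins of both classes, rose from -1.16 and -1.51 to 0.69 and 0.62 (1.99 ± 0.20 SE, limma adjusted p = 0.00599). Epha7 fell from 2.69 and 2.39 to 0.90 and 0.99 (-1.59 ± 0.19 SE, limma adjusted p = 0.00893). In each of these 3 genes a second probe moved the same way, by 2.36 ± 0.25 for Ephb2, 1.62 ± 0.28 for Epha4 and -1.68 ± 0.16 for Epha7. These 3 calls held without each array in turn.

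Further class A receptors lay lower in OSK+Glis1 without passing. Epha2, an epithelial receptor of Efna1, was at 1.49 and 1.87 in OSK and at 0.84 and 0.57 in OSK+Glis1, with a limma adjusted p of 0.0507 that passed under quantile normalization (0.0434). Epha1 was at 1.52 and 1.70 against 0.00 and 0.80 (-1.21 ± 0.31 SE, limma adjusted p = 0.0705), and it passed with the replicate block (0.0411) and without OSK+Glis1 replicate 2 (0.0339, difference -1.61). Epha3, a receptor of Efna5, was at -3.34 and -3.40 against -4.19 and -5.16 (-1.30 ± 0.35 SE, limma adjusted p = 0.0799), and it passed without OSK+Glis1 replicate 1 (0.028, difference -1.79). In these 3 genes the OSK arrays all lay above the OSK+Glis1 arrays. Groups did not overlap, in either direction, for 59.9% of all genes. Epha5 (0.40 ± 0.35), Ephb4 (0.39 ± 0.17), Ephb3 (-0.03 ± 0.19) and the kinase-dead Ephb6 (-0.19 ± 0.16) had adjusted p of 0.225 to 0.948.

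**Figure D3:**
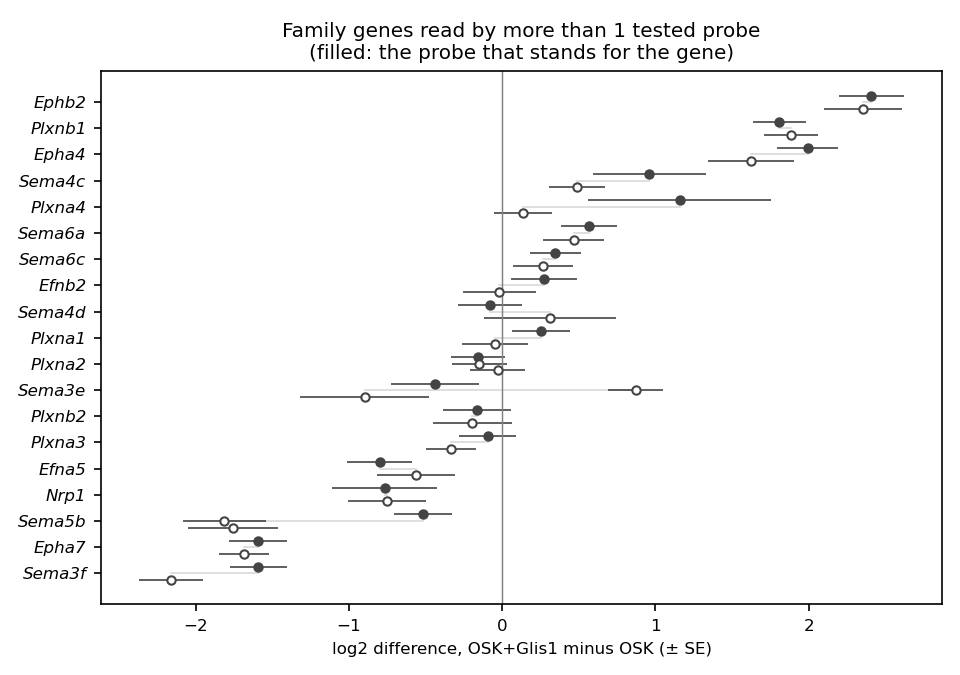
Log2 difference between OSK+Glis1 and OSK with its standard error (horizontal axis) for each tested probe of the 19 family genes read by more than 1 tested probe. The filled point is the probe with the highest mean, which stands for the gene. In 15 genes all probes point the same way, and in Efnb2, Plxna1, Sema3e and Sema4d they do not.

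Of the 16 called genes, 5 were read by more than 1 tested probe (Epha4, Epha7, Ephb2, Plxnb1 and Sema3f), and in all 5 the probes agreed in direction. The other 11 rest on 1 tested probe each.

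Family members that lie side by side in the genome did not always move together. In the RefSeq annotation Sema3b and Sema3f are separated by 3 genes, and Sema3b rose 6.38-fold while Sema3f fell 3.01-fold. Gnai2, a G protein subunit gene between them, rose 2.41-fold (1.27 ± 0.19 SE, limma adjusted p = 0.0166), and Slc38a3 and Gnat1 were not tested. Efna1 and Efna4 flank Efna3, for which no probe matched. Efna4 rose 5.50-fold, and Efna1 had a difference of 0.54 ± 0.26 (limma adjusted p = 0.26). Sema3d fell, whereas Sema3e of the same cluster had probes in both directions.

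**Figure D4:**
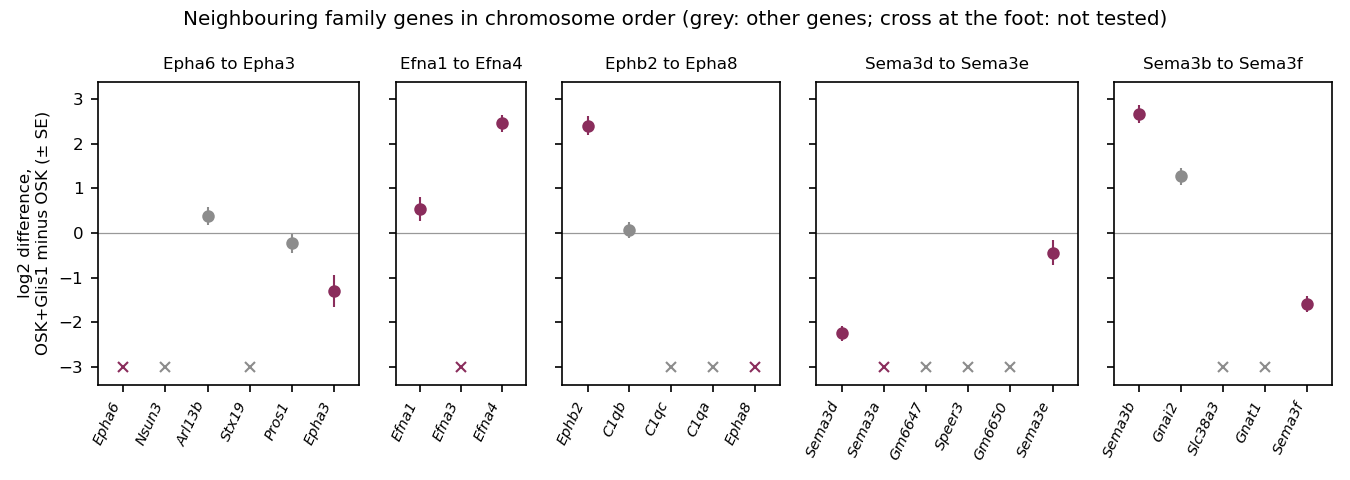
Log2 difference between OSK+Glis1 and OSK with its standard error (vertical axis) for family genes with at most 4 protein-coding genes between them (purple) and the genes between (grey), in RefSeq order (horizontal axis). Crosses at the foot mark genes that were not tested. Sema3b lies at 2.67 and Sema3f at -1.59 on either side of Gnai2 at 1.27.

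Of 49 tested intracellular partners, which carry the signals inside the cell, 4 rose and 5 fell. The called share of 18.4% lay near the 14.2% of all genes. Chn2, a Rac-inactivating chimaerin, fell 17.3-fold (-4.12 ± 0.26 SE, limma adjusted p = 0.00262), and Vav3, an exchange factor for small GTPases that acts behind Eph receptors, fell 11.3-fold (-3.50 ± 0.17 SE, 0.00225). Mical2, an actin-oxidising enzyme, was at least 4.52-fold lower (0.0198), and the kinase gene Fes fell 2.81-fold (0.0182). Dpysl4, of the collapsin response mediators, rose 6.25-fold (2.64 ± 0.20 SE, 0.00331), and the exchange factor Kalrn was at least 2.96-fold higher (0.0268). Mical2 and Kalrn were well above background in 1 group only and entered through it, so their p-values are no independent support. Under normexp with outlying local backgrounds replaced the differences were -3.27 for Chn2, -2.13 for Vav3, -0.77 for Mical2 and 0.34 for Kalrn, the last without a call (limma adjusted p = 0.377). Mical2 was at -4.17 and -2.58 without OSK+Glis1 replicates 1 and 2. Leaving out OSK replicate 1 gave 1 higher and 2 lower, and OSK replicate 2 gave 1 and 3. Leaving out OSK+Glis1 replicate 1 gave 2 and 4, and OSK+Glis1 replicate 2 gave 2 and 3. The calls of Mical2, Fes and Kalrn were each lost without either OSK array in turn, at adjusted p of 0.0561 to 0.13, and that of Fes also without OSK+Glis1 replicate 2 (0.0746).

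Other surface partners had 2 higher and 3 lower of 13, a called share of 38.5%, against 14.2% of all genes. Ptprz1, a receptor phosphatase of glia, fell 19.5-fold (-4.29 ± 0.55 SE, limma adjusted p = 0.0111), Chl1, an adhesion protein of the L1 family, by 3.59 ± 0.16 on the log2 scale (0.00225) and the receptor Met 2.15-fold (0.0368). Met lost its call under 8 of 14 alternatives, among them median scaling and no filter on dim probes, with differences from -1.34 to -0.76. Kdr, the endothelial growth factor receptor that pairs with neuropilins, rose 4.84-fold (2.28 ± 0.33 SE, 0.0159), and L1cam was at least 1.46-fold higher (0.0277). L1cam entered through the OSK+Glis1 group alone, so its p is no independent support. Under the same normexp setting L1cam was at 0.07 (limma adjusted p = 0.862), Kdr at 1.47 and Ptprz1 at -3.53. Ptprz1 was at -3.50 without OSK+Glis1 replicate 1 and at -5.07 without OSK+Glis1 replicate 2, and its call was lost without either OSK array (0.0834 and 0.0741). Without OSK replicate 1 the call of Chl1 alone was left, with 0 higher and 1 lower in limma. Without OSK replicate 2 there were 1 higher and 1 lower, without OSK+Glis1 replicate 1 there were 1 and 2, and without OSK+Glis1 replicate 2 there were 2 and 2.

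The unrelated guidance families of netrins, slits and repulsive guidance molecules had 2 higher and 4 lower of 20, a called share of 30.0%, against 14.2% of all genes. Robo4, a roundabout gene of endothelium, was at least 21.9-fold lower (limma adjusted p = 0.00331), and Unc5d, a netrin receptor, fell 5.85-fold (-2.55 ± 0.18 SE, 0.00302). Flrt2, a ligand of Unc5d, fell 3.41-fold (0.00897) and Slit2 fell 2.67-fold (0.0135). Dscam was at least 4.78-fold higher (0.00533), and Rgma rose 2.18-fold (1.13 ± 0.17 SE, 0.0167). Robo4, Unc5d and Dscam entered through 1 group only, the one where they are high, so their p-values are no independent support. Under the same normexp setting their differences were -1.90, -0.96 and 0.77. Slit2 lost its call without OSK replicate 2 (0.0594) and without either OSK+Glis1 array (0.0598 and 0.0625), Flrt2 without either OSK array (0.0594 and 0.0622) and Rgma without any 1 of the 4 arrays (0.0676 to 0.087). Leaving out OSK replicate 2 gave 1 higher and 2 lower, and leaving out either OSK+Glis1 array gave 1 higher. Tubb3, Nefl and Nefm, of the neuron and glia markers, fell in the same arrays as Ptprz1, Chl1, Unc5d and Robo4. Nefm, like Unc5d and Robo4, entered through the OSK group alone. The part of neurons and glia in these falls was not tested.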

How the data were processed

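Cy3-labelled total RNA of each sample was read on its own one-colour array, per the labels. The deposited scanner output holds an intensity for every spot, written by Agilent Feature Extraction 10.7.3.1, whose processed signal is background-subtracted and spatially detrended within the array, per the file headers. A second deposited table is on a log2 scale, and how it was made is unstated. It equals the log2 processed signal minus 1 constant per array for 99.8% to 99.9% of probes within 0.01, and its column medians were 3.1e-06, -0.00016, 0.000216 and 4.8e-05. Its scale and direction are thus settled, and which tool centred it is not known.

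Each array had 43379 non-control spots, of which 59.9% to 65.2% were well above background and 0 were saturated. Precision is limited by the number of arrays. Control and outlier spots were left out (71 probes had no unflagged spot on some array), spots of a probe were averaged, and log2 signals were taken relative to the array's 75th percentile. Probes were named through RefSeq accessions without versions (GRCm38.p6), and 26933 matched. The array annotation names another build, mm9, so coordinates are given only for RefSeq promoter windows. A gene was represented by whichever of its probes had the highest mean. Groups, from the sample titles, were compared with limma 3.58.1 (lmFit, eBayes, two-sided, R 4.3.3) over 19165 genes. Where a group had no array well above background, "at least" sets the bright group's mean against the dim group's mean of a floor, per array the probe's own signal or, if higher, the lowest signal well above background, and the p is that of the fitted difference. That floor is the lowest such signal of any spot on the array, so "at least" holds for this floor and this signal only. A signal not well above background can exceed it, as that of Sema4g did on OSK replicate 2 (-5.50 against -5.56). The bound of Sema3d is 1.81 on the log2 scale, and its difference was -0.58 under normexp with outlying local backgrounds replaced. Only the limma fit was tested on simulated data, in 20 runs with 200 changed genes each, and not the filter, scaling, background correction or bounds. All tested family genes are named, those past the threshold or at least 2-fold apart without overlap with each array's value, and up to 6 called genes per partner list.

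The members, lists and tests were chosen with earlier results of these data known. Replicate numbers are shared by the groups, but the deviations of same-numbered arrays were not correlated (r = 0.00913), so the numbers were not used as pairs. Alternatives covered scaling, background correction, the dim-probe filter, the deposited table, the mean over probes, the replicate block, each array left out and limma-trend. All 4 arrays share 1 slide and 1 scan, so neither could be a block. The scanner tables give median, not mean, spot signals, and normexp used those.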

Additional observations from a re-analysis of the deposited data

How the results depend on the processing

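Of the 16 family calls, 8 held under 13 of the 14 alternatives: Efna4, Epha4, Epha7, Ephb2, Nrp2, Plxnb1, Plxnb3 and Sema3b. The filter on all 4 arrays left out Efna2, which entered through the OSK+Glis1 group alone, so its calls are no independent support. It held under 12 of the 13 alternatives in which it was tested. The exception in each case was normexp on spot and local background, which left 0 higher and 0 lower in limma for the families (10 of 46 at an unadjusted p under 0.05), 0 and 0 for the partner and guidance lists and 0 and 0 for all genes (1481 at an unadjusted p under 0.05). It turned the sign of Efna2 (-0.57), Plxnc1 (-0.47), Sema6b (-0.48), Kalrn (-0.96), L1cam (-1.23) and Dscam (-0.50), and the cause was not tested. With outlying local backgrounds replaced by the array median, 11 family genes were higher and 6 lower. Limma-trend gave 7 lower. Without a filter, where more genes enter the adjustment, the lists had 3 higher and 7 lower and all genes 556 and 958. The replicate block gave 12 higher and 5 lower family genes. Leaving out 1 array gave 8 to 12 higher and 2 to 5 lower for the families, 3 to 5 and 6 to 9 for the lists and 449 to 785 and 668 to 1093 for all genes. The median difference of all genes was 0.19 with median scaling, 0.21 in the deposited table and -0.25 under normexp, against 0.05 as scaled here, and the family calls were 13 higher and 4 lower under the first and second. Signals not well above background limit Sema3d, Plxna4, Efna2 and Sema4g.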
